A study of Homo sapiens with 6 samples.

Results

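The genes described here are 52 genes of DNA replication and of the entry into S phase, chosen by name from the 47432 genes listed for each library. They comprise the factors that license replication origins, those that activate the replicative helicase, the replicative polymerases and primase, the sliding clamp with its loader and partners, enzymes that supply nucleotides, cyclin E and E2F regulators, and proteins of S-phase chromatin and of fork protection. Their exon and intron reads were compared in the established human melanoma cell line LOX-IMVI, whose cells carried either the pLKO.1 control construct (shCtrl) or a pLKO.1 construct with a short hairpin RNA against NFKBIZ (shNFKBIZ). NFKBIZ encodes IκBζ, a nuclear co-regulator of NF-κB, and the study asks what its constitutive expression does in melanoma cells. Both groups were lentivirally transduced, selected with puromycin and grown in RPMI-1640 medium with FCS, and each group held 3 libraries. A single hairpin was used, so that loss of NFKBIZ and effects of the hairpin on other transcripts cannot be told apart.

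Before DNA synthesis, the origin recognition complex, CDC6 and CDT1 load the MCM2-7 ring onto DNA. At the start of S phase the kinase CDC7 with its activator DBF4, together with CDC45, the GINS complex and MCM10, turn the ring into a moving helicase, behind which the polymerases copy both strands. Most of these genes are transcribed in late G1 and S phase by E2F factors, which cyclin E and its kinase release from the retinoblastoma protein. In bulk RNA, a larger share of cells in S phase and more RNA per cell cannot be told apart.

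Each library held between 22264473 and 24624839 exon reads and between 1812526 and 1975528 intron reads. The intron share of all gene reads was 7.16 to 7.46% in shCtrl and 7.63 to 8.15% in shNFKBIZ. NFKBIZ itself fell from 44.5 ± 4.12 to 13.7 ± 0.362 TPM (transcript level corrected for length and library total, SD, n = 3). Of 7 melanocyte markers, only MITF had a mean above 1 TPM (2.83 to 3.58 TPM in shCtrl and 1.72 to 2.16 in shNFKBIZ), and SOX10 and MLANA had no reads in any library. The summed level of 6 markers of dedifferentiated melanoma was 698 to 717 TPM in shCtrl and 953 to 965 TPM in shNFKBIZ. Among them AXL was at 384 to 432 against 483 to 490.1 TPM and WNT5A at 132 to 139 against 60.4 to 63.5 TPM, while NGFR was at most 0.113 TPM. Of 5 blood cell markers, CD68, a lysosomal protein abundant in macrophages, was at 96.6 to 99.7 TPM in shCtrl and 198 to 199 TPM in shNFKBIZ, whereas PTPRC, which marks blood cells in general, was at most 0.0113 TPM and CD3E had no reads. The part of these shifts in the replication genes' values was not tested.

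Promoter sequences of 4 genes are shown first, with the letters of promoter elements marked where they occur. They are the gene with the largest rise and the one with the largest fall among the G1/S regulators, CCNE1 and E2F1, the licensing gene that fell, MCM6, and the helicase activator that rose most, MCM10. Each sequence runs 5′ to 3′ on the gene's strand from 150 bases before to 30 bases after the start in RefSeq (GRCh38.p14), and capitals mark letters of an E2F site, a CCAAT box or a CHR element on either strand.
MCM10 (chr10:13161408-13161587, plus strand): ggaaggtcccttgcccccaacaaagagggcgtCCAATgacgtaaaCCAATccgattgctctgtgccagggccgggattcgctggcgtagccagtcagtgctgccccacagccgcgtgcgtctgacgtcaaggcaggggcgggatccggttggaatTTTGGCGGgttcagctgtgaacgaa
MCM6 (chr2:135876414-135876593, minus strand): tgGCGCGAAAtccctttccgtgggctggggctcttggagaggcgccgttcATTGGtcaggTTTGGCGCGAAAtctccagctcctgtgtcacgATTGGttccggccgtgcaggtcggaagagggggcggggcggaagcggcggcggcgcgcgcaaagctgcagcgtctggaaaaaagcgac
CCNE1 (chr19:29811841-29812020, plus strand): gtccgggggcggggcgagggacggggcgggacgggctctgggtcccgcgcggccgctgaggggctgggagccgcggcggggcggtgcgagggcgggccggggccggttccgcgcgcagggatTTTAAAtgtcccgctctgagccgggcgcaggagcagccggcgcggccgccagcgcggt
E2F1 (chr20:33686356-33686535, minus strand): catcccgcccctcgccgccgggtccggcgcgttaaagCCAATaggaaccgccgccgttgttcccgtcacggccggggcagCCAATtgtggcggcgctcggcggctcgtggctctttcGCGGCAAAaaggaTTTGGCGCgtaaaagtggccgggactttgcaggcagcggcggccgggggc

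The E2F letters searched were TTTGGCGC, TTTCCCGC, TTTGGCGG, TTTCCCGG, TTTCGCGC and TTTGCCGC, the CCAAT box was CCAAT, and the CHR letters were TTTGAA and TTTAAA, all on both strands of the 300 bases from 250 before to 50 after a start. Matches can overlap, as in MCM6, where TTTGGCGC and the reverse complement of TTTCGCGC share letters. RefSeq promoters matched 45 of the 52 genes by symbol, with 58 promoters in all. E2F letters were present in 30 of these 58 promoters (51.7%), against 5.33% of all 35116 promoters of that length. CCAAT was found in 56.9% of them, against 34.6% of all promoters, and CHR letters in 13.8%, against 24%. The gene that rose most among the G1/S regulators, CCNE1, had only a CHR match in its window, whereas MCM6 and E2F1, which fell, each held several E2F matches. Among the genes with a promoter here, E2F letters were found for 21 of 33 whose exon reads were higher in shNFKBIZ, for 3 of 6 whose exon reads were lower, and for 4 of 6 that were not called. These are matches of letters in a window and were not tested as binding sites.

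As a whole, the replication genes took up more of the transcriptome in shNFKBIZ cells. Their share of all exon reads was 0.454 to 0.470% in the shCtrl libraries and 0.603 to 0.611% in the shNFKBIZ libraries. Their summed level was 4372 to 4617 TPM in shCtrl and 5868 to 5994 TPM in shNFKBIZ, and the groups did not overlap. PCNA, the sliding clamp, had the highest level in shCtrl (533 ± 27.8 TPM; SD, n = 3) and E2F2, an activating E2F factor, the lowest (5.17 ± 0.180 TPM). All 52 genes passed the filter on low exon counts. With edgeR's quasi-likelihood test fitted across all genes, 39 of the 52 were higher in shNFKBIZ with an adjusted P up to 0.05 and 6 were lower, while 7 were not called. Of all 13843 genes tested, 32.5% were higher and 32.8% lower by the same call. The median log2 fold change of the 52 genes was 0.31, against 0.0043 for all genes tested, and 44 of the 52 values were above 0. Shares of reads and TPM rest on each library's total, and with library size alone as the scaling these medians were 0.40 and 0.09. The changes were small: only 1 gene, DBF4, also reached a 2-fold change, and it was lower, while the largest rise was 1.67-fold. A 2-fold change with that adjusted P was found upward in 3.84% and downward in 5.12% of all genes tested.

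**Figure D1:**
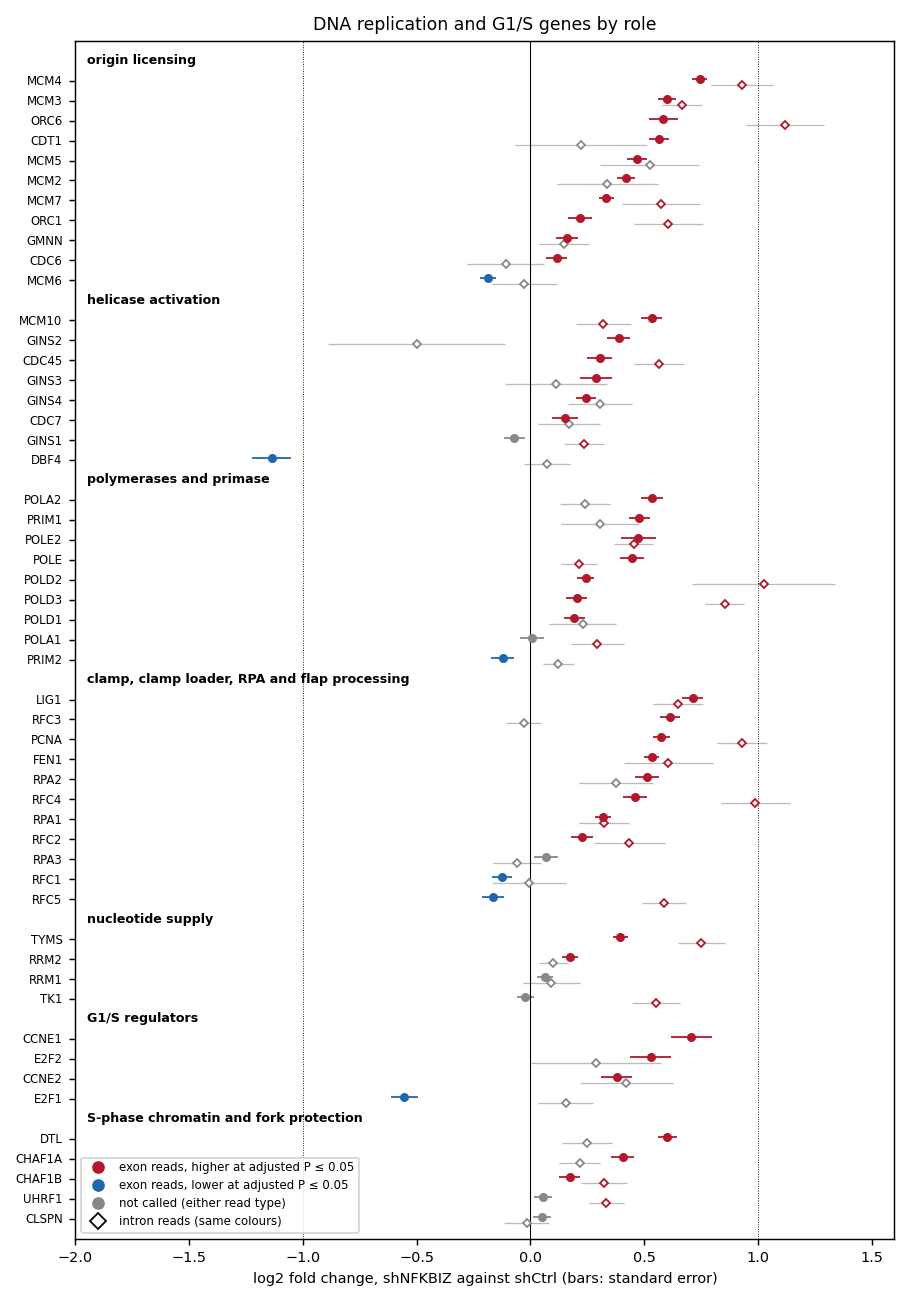
Log2 fold change of exon reads (filled circles) and intron reads (open diamonds) in shNFKBIZ against shCtrl for each of the 52 genes, arranged by role, with standard errors as bars and dotted lines at a 2-fold change. Most circles lie to the right of 0, with DBF4 (-1.14) and E2F1 (-0.55) farthest to the left and MCM4 (0.74) farthest to the right.

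The 11 genes of origin licensing come first. All of them were called in exon reads, 10 of them higher and 1 lower, with a median log2 fold change of 0.42. Their summed level was 1009 to 1066 TPM in shCtrl and 1403 to 1472 TPM in shNFKBIZ. MCM4, a subunit of the helicase ring (chromosome 8, 47960185 to 47978160, plus strand, hg38), rose most of all 52 genes. It had 325, 313 and 331 CPM (exon reads scaled to the library total and TMM factors) in shCtrl and 546, 531 and 544 in shNFKBIZ. Its log2 fold change was 0.74 (edgeR adjusted P 1.57e-14, SE 0.0331), a 1.67-fold rise. Its TPM, which are not scaled by TMM factors, were 122 ± 5.52 in shCtrl and 217 ± 0.694 in shNFKBIZ (SD, n = 3). Ratios of TPM therefore differ from the fold changes given here.

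The ring did not move as a unit. MCM3 (0.60), MCM5 (0.47), MCM2 (0.42) and MCM7 (0.33) rose with MCM4 in log2 exon change, but MCM6 fell. MCM6 (chromosome 2, 135839626 to 135876443, minus strand) had 143, 139 and 139.6 CPM in shCtrl and 126, 123 and 123 CPM in shNFKBIZ, so that the groups lay close together without overlapping. Its log2 fold change was -0.19 (edgeR adjusted P 1.02e-04, SE 0.0358) and stayed between -0.20 and -0.10 under all alternatives tried.

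Among the loading factors, CDT1, which brings the ring to the origin, rose by a log2 fold change of 0.57 and ORC6, the smallest subunit of the recognition complex, by 0.58. ORC1, the largest subunit of that complex, rose less (0.22). Its subunits outside the 52 genes were divided: ORC3 (0.28) and ORC5 (0.51) were called higher, ORC2 (-0.65) and ORC4 (-0.27) lower. Those subunits were named after their values were seen. Geminin (GMNN), the inhibitor of CDT1, had a log2 fold change of 0.16, a call lost with the trend on length and GC content removed (adjusted P 0.0649, edgeR), and CDC6, the loading ATPase, one of 0.12. The CPM of CDC6 overlapped between groups and its adjusted P was 0.0328, a call lost under several alternatives, DESeq2 among them (adjusted P 0.0947).

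Of the 8 genes of helicase activation, 6 were higher, 1 was lower and GINS1, a subunit of the GINS complex, was not called (-0.07, SE 0.0469). MCM10, which acts at the activation step, rose most. Its CPM was 53.7, 52.01 and 57.7 in shCtrl and 80.4, 77.9 and 78.1 in shNFKBIZ, with no overlap. The log2 fold change was 0.53 (edgeR adjusted P 1.1e-09, SE 0.0457). The other GINS subunits, GINS2 (0.39), GINS3 (0.29) and GINS4 (0.25), and CDC45 (0.30), their partner in the moving helicase, rose too, but GINS3 lost its call with junction reads (0.23, adjusted P 0.418, edgeR).

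DBF4, the activating subunit of the CDC7 kinase, was the gene with the largest change of all 52. DBF4 (chromosome 7, 87876216 to 87909553, plus strand) had 62.4, 58.8 and 62.4 CPM of exon reads in shCtrl and 29.1, 23.2 and 31.1 CPM in shNFKBIZ. Every shNFKBIZ library lay far below every shCtrl library, and shNFKBIZ replicate 2 was the lowest. Its level fell from 49.8 ± 2.33 to 23.9 ± 3.15 TPM (SD, n = 3). In TMM-scaled exon reads the log2 fold change was -1.14 (edgeR adjusted P 9.59e-07, SE 0.0866), which is 2.20-fold lower. The kinase subunit itself, CDC7, was slightly higher (0.15, SE 0.0571, adjusted P 0.0228, edgeR), a call lost with DESeq2 (adjusted P 0.147), with junction reads (0.0847) and without shCtrl replicate 2, shNFKBIZ replicate 1 or shNFKBIZ replicate 3 (0.0677 to 0.109). Without shNFKBIZ replicate 2 the value of DBF4 was -1.02, and with exon and intron reads counted together it was -0.96, below a 2-fold change.

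**Figure D2:**
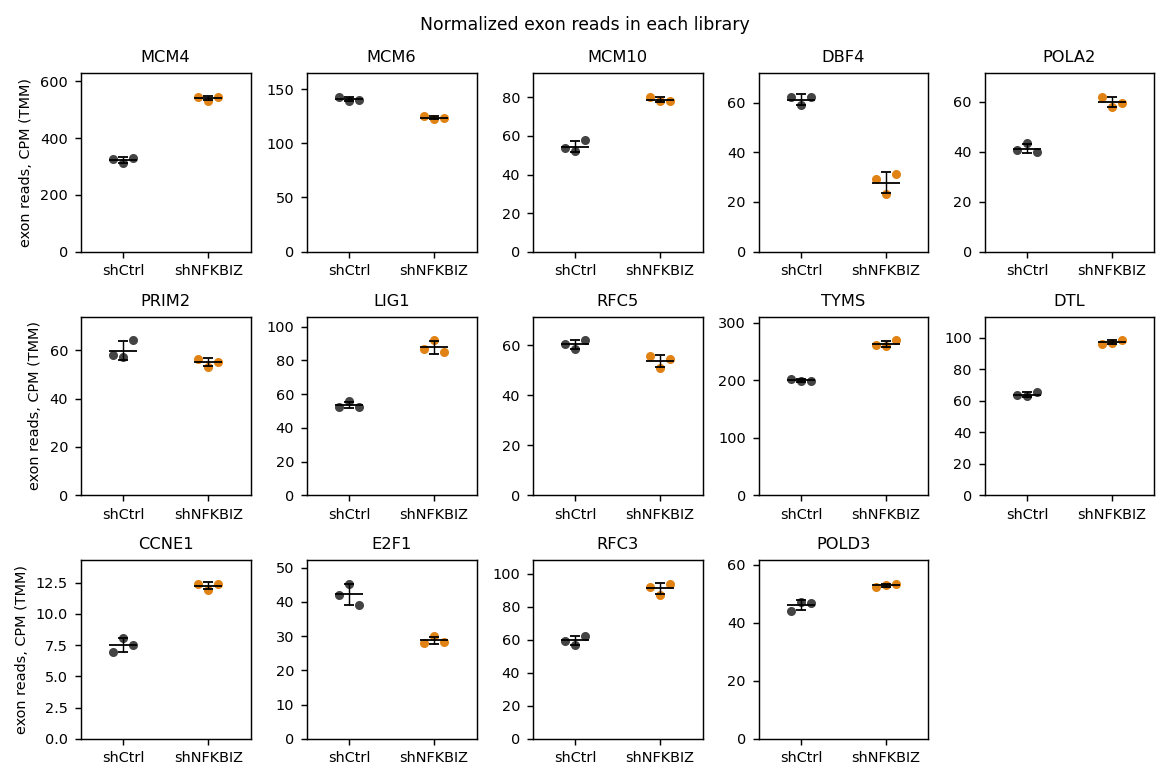
Normalized exon reads (CPM with TMM factors, y axes from 0) in each of the 3 shCtrl and 3 shNFKBIZ libraries for 14 genes, as points with the mean and SD as bars. The groups are apart in each panel, widest for DBF4 (62.4, 58.8 and 62.4 against 29.1, 23.2 and 31.1 CPM), and closest for PRIM2.

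Of the 9 polymerase and primase genes, 7 were higher, 1 was lower and POLA1, the catalytic subunit of polymerase α, was not called (0.01, SE 0.0513). In polymerase ε, the main enzyme of the leading strand, the log2 fold changes were 0.45 for the catalytic subunit POLE and 0.47 for POLE2. Its small subunits POLE3 (0.62) and POLE4 (0.12), which are not among the 52 genes, were also called higher. In polymerase δ, which copies the lagging strand, POLD1 (0.19), POLD2 (0.24) and POLD3 (0.20) rose. The small subunit POLD4, again outside the 52 genes, fell, with a log2 fold change of -0.73. Its level was 41.1 ± 2.04 TPM in shCtrl and 26.3 ± 3.37 TPM in shNFKBIZ (SD, n = 3). Of the POLD4 exon reads, 32.0% were counted as unique. POLE3, POLE4 and POLD4 were named after their values were seen.

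In the polymerase α-primase complex, which lays the primers, POLA2 and PRIM1 rose while PRIM2 fell. POLA2, the accessory subunit, had 40.5, 43.3 and 40.0 CPM in shCtrl and 62.1, 58.0 and 59.4 CPM in shNFKBIZ, a log2 fold change of 0.54 (edgeR adjusted P 3.09e-09, SE 0.0489). Only 31.1% of its exon reads were counted as unique, and an annotated gene overlaps it. With those reads alone its log2 fold change was 0.50. PRIM1, the catalytic primase subunit, had a log2 fold change of 0.48 and lies among overlapping genes, with 78.5% of its exon reads unique.

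PRIM2, the regulatory primase subunit, had 57.9, 57.3 and 64.2 CPM in shCtrl and 56.5, 53.2 and 55.1 CPM in shNFKBIZ. The groups lay next to each other, and the log2 fold change of -0.12 (edgeR adjusted P 0.0379, SE 0.0498) lost its call under 8 alternatives, among them library size alone (-0.03, adjusted P 0.598).

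The clamp, its loader, the RPA subunits and the enzymes that process flaps form a group of 11 genes. Of these, 8 were higher and 2 lower, and the group's median log2 fold change of 0.46 was the highest of the 7 roles. LIG1, the ligase that joins Okazaki fragments, rose most. It had 52.4, 55.8 and 52.4 CPM in shCtrl and 86.5, 92.1 and 84.8 CPM in shNFKBIZ, with a wide gap between groups. The log2 fold change was 0.71 (edgeR adjusted P 8.21e-12, SE 0.0457), a 1.64-fold rise. PCNA (0.57), FEN1, the flap nuclease (0.53), and the single-strand binding subunits RPA2 (0.51) and RPA1 (0.32) rose as well. RPA3, the smallest RPA subunit, was not called (0.07, SE 0.0535).

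The subunits of the clamp loader were divided. RFC3 (0.61), RFC4 (0.46) and RFC2 (0.23) rose, while RFC1, the large subunit, fell (-0.12, adjusted P 0.0164) and RFC5 fell (-0.16, SE 0.0472, adjusted P 0.0042, edgeR). RFC5 had 60.5, 58.6 and 62.1 CPM in shCtrl and 55.8, 51.1 and 54.7 CPM in shNFKBIZ. Neither fall held with library size alone as the scaling (RFC1 -0.03, adjusted P 0.493, and RFC5 -0.08, adjusted P 0.163), which raised the median of all genes to 0.09. RFC1 also lost its call with DESeq2 (adjusted P 0.0626) and, in edgeR, with junction reads (adjusted P 0.611). The same held with the trend on length and GC content removed (0.163) and without shCtrl replicate 1 (0.0612). RFC5 also lost its call with total gene reads (-0.07, adjusted P 0.171, edgeR).

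Of the 4 genes of nucleotide supply, TYMS and RRM2 were higher, and RRM1 and TK1 were not called. TYMS, thymidylate synthase, had 203, 198 and 199 CPM in shCtrl and 261, 259 and 270.0 CPM in shNFKBIZ, a log2 fold change of 0.40 (edgeR adjusted P 1.08e-09, SE 0.0339). It overlaps ENOSF1 on the genome, and strand was not used in the counting. In ribonucleotide reductase, RRM2, the subunit whose RNA is largely made in S phase, rose by a log2 fold change of 0.17, a call lost with junction reads (adjusted P 0.102, edgeR), and the large subunit RRM1 had 0.06 (SE 0.0360). Thymidine kinase TK1, which salvages thymidine, had an exon log2 fold change of -0.02 (SE 0.0373), and its CPM overlapped between groups.

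Among the G1/S regulators, CCNE1 and CCNE2, the cyclins E, and E2F2 rose, whereas E2F1 fell. CCNE1 had 6.91, 8.09 and 7.50 CPM in shCtrl and 12.4, 11.9 and 12.4 CPM in shNFKBIZ, all of the latter above all of the former. Its log2 fold change was 0.71 (edgeR adjusted P 5.42e-07, SE 0.0905), and those of CCNE2 and E2F2 were 0.38 and 0.53. E2F1, the activating E2F factor best known for switching on S-phase genes (chromosome 20, 33675477 to 33686385, minus strand), had 42.1, 45.3 and 39.2 CPM in shCtrl and 28.0, 29.9 and 28.3 CPM in shNFKBIZ. Its groups were clearly apart, and its level fell from 58.6 ± 3.35 to 42.3 ± 2.22 TPM (SD, n = 3). The log2 fold change of E2F1 in TMM-scaled exon reads was -0.55 (edgeR adjusted P 2.89e-08, SE 0.0584). With opposite changes among the 4 genes, their summed level stayed at 91.3 to 96.4 TPM in shCtrl and 93.2 to 99.5 TPM in shNFKBIZ.

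Of the 5 genes of S-phase chromatin and fork protection, 3 were higher and none was lower. DTL, which directs the destruction of CDT1 in S phase, rose from 63.5, 62.8 and 65.5 CPM in shCtrl to 95.9, 96.7 and 98.5 CPM in shNFKBIZ. Its log2 fold change was 0.60 (edgeR adjusted P 1.62e-11, SE 0.0402). Both large subunits of the histone chaperone CAF-1 rose, CHAF1A by 0.41 and CHAF1B by 0.17 on the log2 scale. UHRF1, which carries DNA methylation through replication (0.06), and CLSPN, a mediator of the replication checkpoint (0.05), were not called.

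Intron reads, which come mostly from RNA that is not yet spliced, were then compared in the same libraries. These counts were low, from 5 to 599 reads per gene and library, and the SE of the log2 fold change was 0.0633 to 0.388, against 0.0331 to 0.0906 for exon reads. CCNE1 did not pass the filter on low intron counts, which left 51 genes. Of these, 24 were higher in shNFKBIZ, none was lower and 27 were not called, with a median log2 fold change of 0.31. By the same call 19.3% of the 12119 genes tested in intron reads were higher and 19.5% lower. In edgeR's test, 31 of the 51 genes were higher and 0 lower at an unadjusted P of at most 0.05, where 23.5% of all genes tested were higher and 23.3% lower, and the number called lower was also 0 in each alternative fit of intron reads.

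The share of intron reads that fell on the 52 genes was 0.324 to 0.339% in shCtrl and 0.425 to 0.435% in shNFKBIZ. ORC6 (1.12, SE 0.172) and POLD2 (1.03, SE 0.314) reached a 2-fold change in intron reads, ORC6 with 36, 29 and 33 intron reads in shCtrl and 78, 73 and 76 in shNFKBIZ, and POLD2 with only 16, 10 and 7 against 20, 30 and 22. Both read types were called higher for 19 genes, among them MCM3, MCM4, MCM7, PCNA, LIG1, FEN1, POLE2 and TYMS. Of all 11025 genes tested in both, 13.1% were called higher in both. Intron reads alone were called higher for GINS1, POLA1, TK1 and UHRF1. Of the genes named here, MCM7 overlaps AP4M1, FEN1 overlaps FADS2, TYMS overlaps ENOSF1 and GINS1 overlaps NINL. PCNA, LIG1, POLE2, POLA1 and UHRF1 overlap other annotated genes that do not code for protein. Intron reads could come from such neighbours, because strand was not used. Leaving out a single library cost 10 of the 24 genes their intron call (CHAF1B, FEN1, GINS1, MCM7, MCM10, POLA1, POLD2, POLE, RFC2 and RPA1).

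The difference between the exon and the intron change of each gene was then tested as an interaction, with the library as a block. Each read type was scaled with its own TMM factors, so that both changes are relative to the typical gene of that read type. The exon change was above the intron change for 3 of 51 genes (POLE, RFC3 and DTL), where 12.4% of the 11025 genes tested were called so, and below it for 14, where 16.5% of all genes were. The 14 genes were ORC1, ORC6, GINS1, DBF4, PRIM2, POLD2, POLD3, PCNA, RFC4, RFC5, TYMS, TK1, E2F1 and UHRF1, and 34 genes were not called. DTL overlaps INTS7, RFC4 overlaps EIF4A2 and PRIM2 overlaps 2 annotated genes, from which reads could come because strand was not used. Across the 51 genes the exon and intron log2 fold changes had a Pearson correlation of 0.37, which was 0.46 among the 42 genes with a mean of at least 50 intron reads and 0.70 among all 11025 genes. Both values of a gene come from the same libraries, and counting error in the intron reads is part of their scatter. A correlation also depends on how widely the values spread, which was not matched between these sets of genes.

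**Figure D3:**
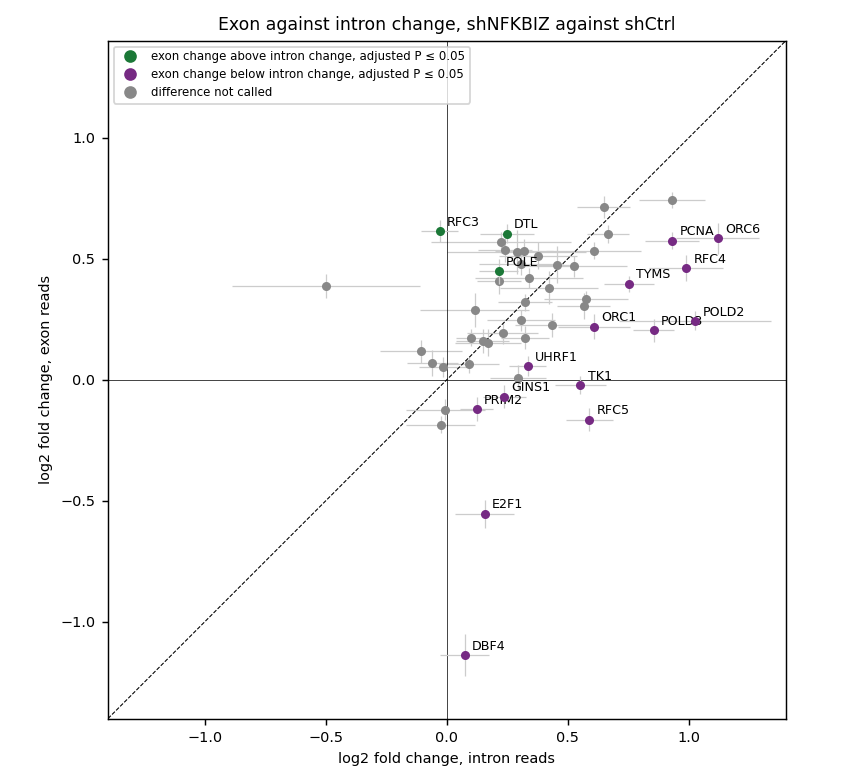
Log2 fold change of exon reads (y axis) against that of intron reads (x axis) for 51 genes, with standard errors as bars and a dashed line where both are equal. Purple points (exon change below intron change) include DBF4 and E2F1 far under the line, and the green point RFC3 lies farthest above it among the called genes.

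The difference was widest for DBF4. Its introns had 155, 155 and 150 reads in shCtrl and 178, 161 and 176 in shNFKBIZ, groups that overlapped once scaled (log2 fold change 0.07, SE 0.102, adjusted P 0.606, edgeR). With the fall in its exon reads, the interaction was -1.21 (edgeR adjusted P 5.31e-17, SE 0.110) and between -1.28 and -1.17 under all alternatives. E2F1 had the same pattern, with 96, 112 and 103 intron reads in shCtrl and 123, 140 and 106 in shNFKBIZ (0.16, SE 0.121) and an interaction of -0.71 (edgeR adjusted P 3.22e-06, SE 0.126). In the reads that span a junction between exons, DBF4 also fell (-1.08). DBF4 overlaps SLC25A40, from which reads could come because strand was not used, whereas no annotated gene overlaps E2F1.

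RFC5 and POLD3 rose in intron reads, and their exon changes were lower than their intron changes. RFC5 had 142, 151 and 159 intron reads in shCtrl and 248, 256 and 220 in shNFKBIZ, a log2 fold change of 0.59 (SE 0.0959), opposite in sign to its exon change, and the interaction was -0.75 (edgeR adjusted P 1.67e-09, SE 0.102). It was the only gene of the 52 called in opposite directions, as were 3.09% of all genes tested in both. POLD3 had 221, 202 and 182 intron reads in shCtrl and 394, 367 and 403 in shNFKBIZ (0.85, SE 0.0854), whereas its exon reads were at 44.1, 47.1 and 47.0 CPM and 52.5, 53.0 and 53.6 CPM, and the interaction was -0.65 (edgeR adjusted P 1.07e-08, SE 0.0933). RFC5 overlaps WSB2 and POLD3 overlaps 1 other annotated gene, from which intron reads could come because strand was not used.

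RFC3 was the opposite case. Its exon reads rose from 59.3, 57.1 and 62.4 CPM in shCtrl to 92.0, 87.4 and 94.1 CPM in shNFKBIZ, a log2 fold change of 0.61 (edgeR adjusted P 8.67e-11, SE 0.0451). Its intron reads, 387, 374 and 417 against 391, 399 and 439, overlapped between groups once scaled (-0.03, SE 0.0758). The interaction was 0.64 (edgeR adjusted P 2.12e-11, SE 0.0770). RFC3 overlaps 2 other annotated genes, and their part in its intron reads was not tested.

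Other genes of the same pathways were listed beside the 52. For the counts that follow, 32.5% of all genes tested in exon reads were higher and 32.8% lower. Of 27 further genes of G1/S control, 24 could be tested in exon reads. Of these, 12 were higher (50%) and 5 lower (20.8%), with a median log2 fold change of 0.12. For 23 of them tested in both read types, the exon change was above the intron change for 4 and below it for 3. CCND1, cyclin D1, which acts before cyclin E, rose from 482 ± 24.4 to 1139 ± 10.4 TPM (SD, n = 3). Its log2 fold change was 1.16 in TMM-scaled exon reads (edgeR adjusted P 2.24e-17, SE 0.0353) and 0.85 in intron reads. CDKN2B, an inhibitor of the cyclin D kinases, fell from 22.6 ± 2.14 to 3.98 ± 0.372 TPM. Its log2 fold change was -2.59 in TMM-scaled exon reads (edgeR adjusted P 1.5e-15, SE 0.10) and -2.34 in intron reads. These 2 were the genes of that list past a 2-fold change. The inhibitors CDKN1A (-0.08, adjusted P 0.0621) and CDKN1B (-0.05, adjusted P 0.425) and the retinoblastoma gene RB1 (-0.07, adjusted P 0.160) were not called in exon reads. In intron reads RB1 was called higher (0.35, adjusted P 0.00841, edgeR) and CDKN1A lower (-0.20, adjusted P 0.0481, edgeR). CDKN1B was not called there either (-0.46, adjusted P 0.295, edgeR).

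Of 31 further replication genes, 16 were higher (51.6%) and 4 lower (12.9%) in exon reads, with a median of 0.13 and none past a 2-fold change. In intron reads 28 of them were tested, of which 13 were higher and 0 lower. Their exon change was above the intron change for 3 and below it for 9 (32.1%). A list of 29 genes of mitosis had 5 higher (17.2%) and 13 lower (44.8%) in exon reads, with a median log2 fold change of -0.08. MKI67, the proliferation marker, was not called (-0.07, SE 0.0345, adjusted P 0.0682, edgeR). Of 28 mitosis genes tested in intron reads, 4 were higher and 3 lower. The exon change of these 28 was above the intron change for 2 and below it for 8 (28.6%). Replication-dependent histone genes, whose RNA is made in S phase, had low counts, and 18 of 68 could be tested. Of these, 10 were higher (55.6%) and 2 lower (11.1%), with a median log2 fold change of 0.69, and several copies share reads with each other. Whether the reads of these histone genes come from RNA made in S phase was not tested. The medians and shares of the lists are descriptions, and no difference between lists was tested.

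**Figure D4:**
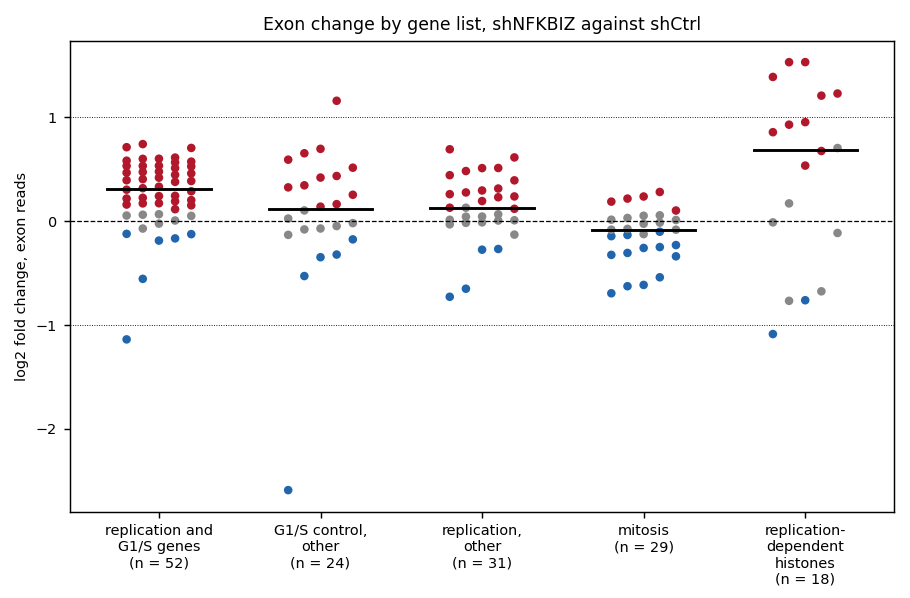
Log2 fold change of exon reads for each tested gene of 5 lists (red higher, blue lower and grey not called at an adjusted P of 0.05), with black bars at the medians, a dashed line at the median of all genes and dotted lines at a 2-fold change. The median is 0.31 for the 52 replication and G1/S genes, -0.08 for the mitosis genes and 0.69 for the histone genes.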

How the data were processed

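RNA-seq libraries of LOX-IMVI cells were grouped by the titles of the samples into 3 shCtrl and 3 shNFKBIZ libraries. The authors mapped the reads to hg38 (Ensembl release 109) with CLC Genomics Workbench, counting reads of both strands and reads with several hits, and deposited whole-number counts of exon and intron reads per gene. Labels and methods differ on the sequencing provider, which is therefore left out. The deposited TPM were recomputed from exon reads and exon length.

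Total exon reads and total intron reads were each filtered with filterByExpr, scaled with TMM factors and tested in edgeR 4.0.16 (quasi-likelihood F test, R 4.3.3, two-sided, Benjamini-Hochberg over all genes tested, called at an adjusted P of at most 0.05, with 2-fold as an additional limit). The exon-intron difference was tested as an interaction in 1 model with library blocks. SE values are the absolute log2 fold change over the root of F.

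The study names at least 3 independent biological replicates, and the labels do not say what separates the libraries, so P values measure the spread between these libraries. All pairs of replicates differed by more than sampling noise, with a chi-square of 1.71 to 4.45 per degree of freedom. Total exon reads of 22264473 to 24624839 per library gave an SE of 0.0331 to 0.0906 for the 52 genes.

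Values per library are given for the genes past the threshold, for the largest rise and the largest fall called in each role, and for the 5 lowest interaction P values. Complexes were grouped from textbook knowledge after their values were seen, and the other genes named are given without values per library. The genes, lists and tests were chosen with earlier results of these data known. Alternatives were RLE factors, library size alone, other count filters, the likelihood ratio test, DESeq2 1.42.0, unique, junction or total gene reads, removal of abundant genes or of a trend on length and GC content, a replicate block, a 1.5-fold limit and leaving out each library. Junction reads and removal of the gene with the most intron reads were added after the data were seen.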

Additional observations from a re-analysis of the deposited data

How the results depend on the processing

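The median of the 52 genes stayed above that of all genes in exon reads under every alternative, and 36 to 43 of them were called higher. With library size alone, 43 were higher and 3 lower. The median over all genes was then 0.09, and 40.9% of all genes were called higher and 26.4% lower, against 32.5 and 32.8% with TMM factors. The 3 lower genes were then MCM6, DBF4 and E2F1. The number past the threshold was 0 with total gene reads and 7 with a limit of 1.5-fold (MCM3, MCM4, RFC3, LIG1, CCNE1, DTL and DBF4). Leaving out each library gave 36 to 40 genes higher and 5 to 6 lower in exon reads, 19 to 22 higher in intron reads, and 2 to 4 above and 10 to 12 below in the interaction. It cost CDC6, CDC7, GMNN, PRIM2 and RFC1 their exon calls (adjusted P 0.0569 to 0.228) and 10 genes their interaction calls (DTL, GINS1, ORC1, ORC6, PCNA, POLD2, POLE, PRIM2, RFC4 and TYMS, adjusted P 0.0508 to 0.216), and the interactions of DBF4, RFC3, RFC5, POLD3, TK1, E2F1 and UHRF1 kept theirs. Without shCtrl replicate 1 the interactions were 0.24 for DTL, -0.22 for PCNA and -0.24 for TYMS. With DESeq2, 37 genes were higher and 4 lower. No result changed direction together with a call.

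Correlations of deviations were weak, at 0.0207 to 0.0561 between libraries of the same replicate number and -0.0376 to 0.0109 between those of different numbers. The main fits used no pairing. With a replicate block, 39 genes were higher and 6 lower in exon reads, 1 was past the threshold, and 25 were higher in intron reads. Counts of intron reads, down to 5 per gene and library, limit what can be said of GINS2, POLD2 and CCNE1.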
